A study of Mus musculus with 30 samples.

Results

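Adam22 and Adam23, 2 of the 32285 gene rows in each single-cell RNA-seq library, were followed through the cell classes of mouse spleen in the genotypes Smc3-WT and Smc3-cKO. Both were picked because earlier work on these same counts had listed them among the genes lower in Smc3-cKO conventional dendritic cells (cDC). Their difference between genotypes in cDC is therefore given here as a description with no test. Smc3 is a core protein of cohesin, a ring that extrudes loops of chromatin. The question of the series is how this ring works together with PU.1, a myeloid transcription factor of the ETS family, at super-enhancers of cDC. Splenocytes depleted of red blood cells were profiled in 4 droplet libraries, 2 per genotype, and 26 other samples of the series were not analysed here. The age of 6 to 8 weeks in the labels' protocol belongs to the mice used for sorting, and the labels name neither the Cre line nor the deleted part of Smc3. Nor do they tell whether each library stands for its own mouse, and p-values here reflect library-to-library spread that may be technical in part or whole.

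ADAM22 and ADAM23 are transmembrane proteins of the ADAM family (a disintegrin and metalloprotease) whose metalloprotease domain lacks the residues needed for catalysis. In neurons they are receptors for the secreted LGI proteins, and ADAM22 binds scaffold proteins of the postsynaptic density and sits beside voltage-gated potassium channels. cDC are the antigen-presenting cells that prime T cells. Among them cDC1 are specialised for cross-presentation and cDC2 for presentation to helper T cells, while plasmacytoid dendritic cells (pDC) secrete type I interferon.

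In the RefSeq annotation of GRCm38.p6, the assembly named mm10 in the processing notes, Adam22 (ENSMUSG00000040537) lies on chromosome 5 from 8072347 to 8368312 on the minus strand. Adam23 (ENSMUSG00000025964) lies on chromosome 1 from 63445717 to 63596111 on the plus strand. The bases that directly precede the annotated gene start of each are shown because the study concerns PU.1, whose core letters were searched there. They run 5′ to 3′ on the gene's strand, with CpG dinucleotides in capitals, and cover 98 bases (chr5:8368313-8368410) and 76 bases (chr1:63445641-63445716).
Adam22: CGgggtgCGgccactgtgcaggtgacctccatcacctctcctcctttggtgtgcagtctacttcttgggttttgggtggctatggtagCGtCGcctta
Adam23: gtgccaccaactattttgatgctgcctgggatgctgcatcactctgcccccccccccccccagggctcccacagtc
In the full RefSeq promoter windows of 300 bases, the letters GAGGAA, searched on both strands, were found in neither gene, against 28.3% of all 32851 mouse windows of that length. The shorter GGAA, which GAGGAA contains, occurred 3 times in the Adam22 window and not in that of Adam23, while 96.0% of all windows hold it. The Adam22 and Adam23 windows held 19 and 31 CpG against a median of 7, more than 71.9% and 89.4% of all windows. Of these, 4 and 0 lie in the bases printed above. These counts say only which letters are in the windows.

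Cells were put into classes by counting detected marker genes, so the names rest on RNA alone and stand for cDC1-like, cDC2-like and so on. Over the libraries, in the order Smc3-WT replicates 1 and 2 and Smc3-cKO replicates 1 and 2, 12100, 13149, 6850 and 12704 cells were kept. Of these 48, 103, 43 and 122 were cDC2, 43, 58, 28 and 16 were cDC1, and 34, 31, 11 and 12 were mature cDC, which carry genes such as Ccr7 and Fscn1. With the cDC that met no subset rule, all cDC numbered 182, 246, 108 and 184. The defining markers were there: Xcr1 in cDC1 reached 427 to 607 counts per 1000000 UMIs of a class (CPM) in each library, and Sirpa in cDC2 reached 381 to 647 CPM. Smc3 itself was not lower in Smc3-cKO cDC, at 127 and 126 CPM, with 82.7 and 99.3 CPM in the controls. Counted reads can lie outside a deleted part, so this level does not check the genotype.

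In Smc3-WT spleen both genes marked cDC, and Adam22 also marked macrophages. The cDC made up 1.5% and 1.87% of the kept cells, yet held 33.9% and 60.3% of all Adam22 UMIs and 67.8% and 81.5% of all Adam23 UMIs. Macrophages, here mostly red pulp macrophages with Vcam1, Spic and Hmox1, held 41.7% and 16.6% of the Adam22 UMIs. They held 4.07% and 0.308% of the Adam23 UMIs. Cells that met no lineage rule held 15.7% and 13.6% of the Adam22 UMIs and 19.8% and 13.6% of the Adam23 UMIs.

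Among Smc3-WT classes the mean Adam22 level was highest in macrophages (385 ± 20.8 CPM, SD, n = 2), followed by mature cDC (355 ± 42.6), cDC without a subset (254 ± 92.6), cDC2 (253 ± 12.4) and cDC1 (195 ± 78.9). Macrophages and mature cDC overlapped between libraries, and so did cDC without a subset, cDC2 and cDC1. A wide gap followed: pDC held 8.83 ± 3.58 CPM, B cells 2.01 ± 0.876 CPM, and classical monocytes had no Adam22 UMI in either library.
Adam23 took a similar order among cDC, with mature cDC at 2783 ± 270 CPM, cDC without a subset at 1992 ± 927, cDC2 at 1759 ± 73.6 and cDC1 at 924 ± 436 (SD, n = 2). The libraries of mature cDC and of cDC without a subset overlapped, as did the latter and cDC2, whereas cDC2 and cDC1 did not. Macrophages held 81.8 ± 65.1 CPM, and pDC, B cells and T cells held between 5.29 and 9.94 CPM.

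**Figure D1:**
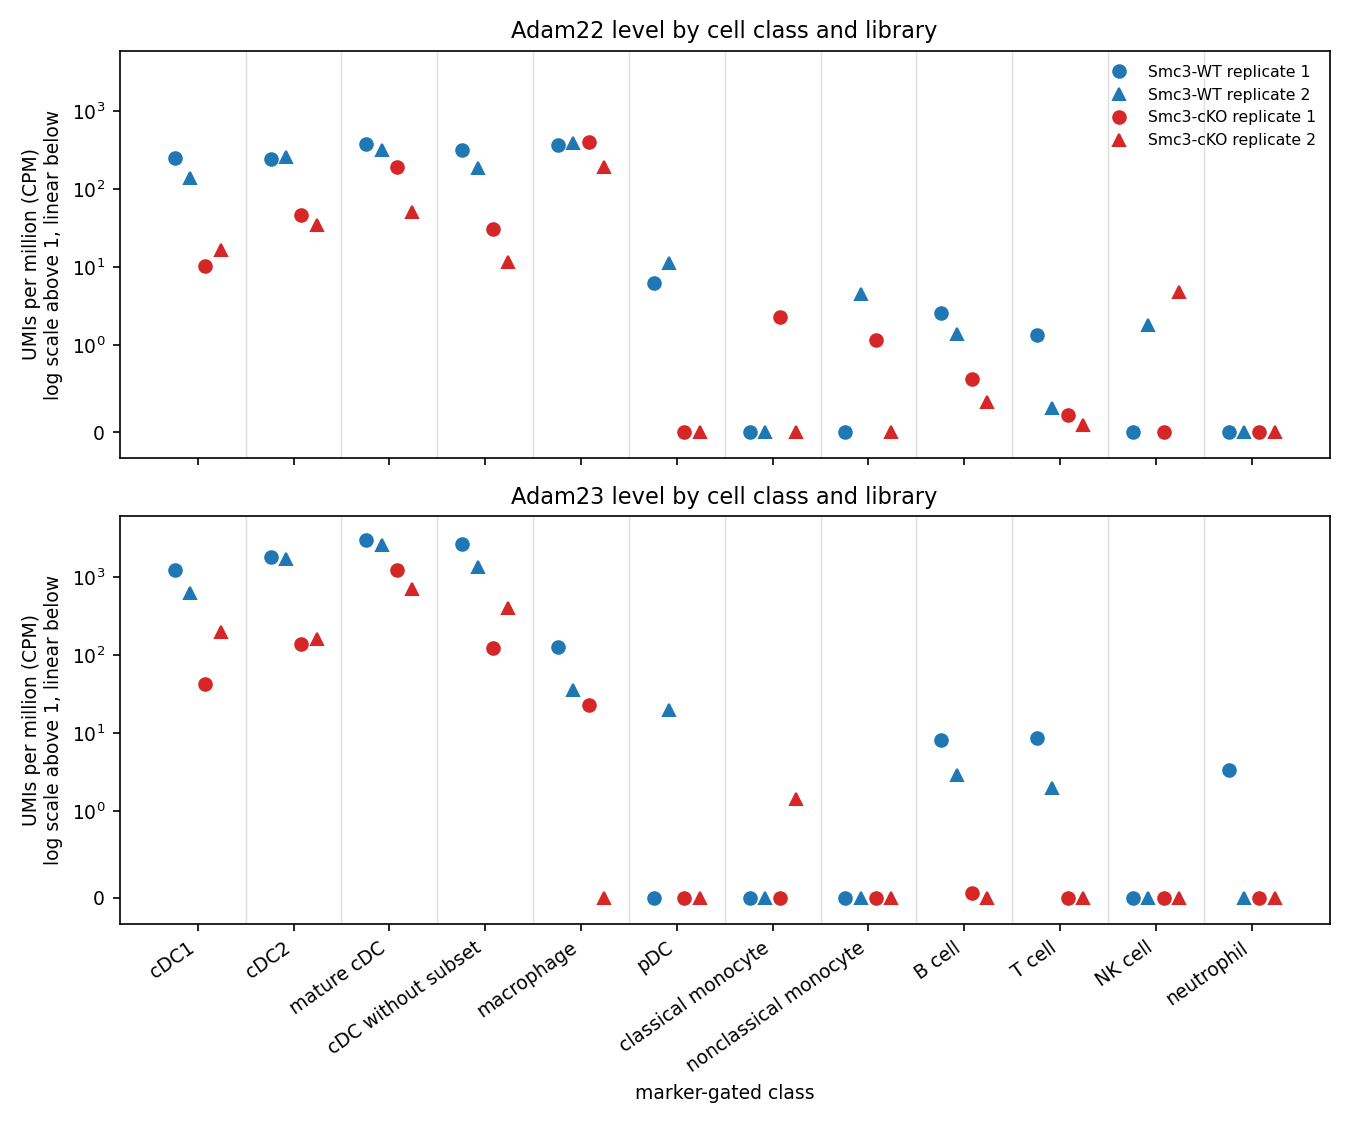
Level of Adam22 (top) and Adam23 (bottom) in CPM, on an axis that is logarithmic above 1 and linear below, for 12 marker-gated classes. Each point is 1 library (blue Smc3-WT, red Smc3-cKO, circle replicate 1, triangle replicate 2). In the cDC classes both red points lie below both blue points, while for Adam22 in macrophages Smc3-cKO replicate 1 lies at 401 CPM among the blue points.

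Within Smc3-WT, where the genotype contrast plays no part, classes were compared with the library as a block (edgeR quasi-likelihood test, Benjamini-Hochberg adjustment over all genes). Between cDC2 and cDC1, 516 of 5387 genes (9.58%) were higher and 487 (9.04%) lower in cDC2. Adam23 was among those higher, with a log2 difference of 0.88 (SE 0.30, adjusted p = 0.0197) that was 0.56 in replicate 1 and 1.47 in replicate 2. The model took the 2 libraries as a block, and the call was lost without the block (adjusted p = 0.634), with a looser lineage gate (0.129), with mitochondrial UMIs at most 5% (0.0668) and without the filter on low counts (0.0542). At the limit of the lineage gate lay 11.6% and 22.4% of Smc3-WT cDC1, against 12.5% and 10.7% of cDC2. Adam23-positive Smc3-WT cDC1 held a mean of 8.44 and 8.23 cDC markers, against 6.06 and 5.89 in negative ones. The part of the gate in this difference was not tested further. Adam22 did not pass the test between these subsets (log2 difference 0.32, SE 0.27, 95% interval -0.21 to 0.85, adjusted p = 0.487), and its sign differed between the libraries (-0.04 and 0.91). For both genes the fit pooled the spread over all genes tested (5387 degrees of freedom). These p-values and the interval therefore do not measure either gene's own spread between the 2 libraries.
In pDC and classical monocytes both genes were so scarce that they passed the filter on low counts through cDC2 alone, so these differences are described with no test. Smc3-WT pDC held 1 and 4 UMIs of Adam22 and 0 and 7 of Adam23, and the fitted log2 difference of cDC2 from pDC was 4.65 (SE 0.41) and 6.96 (SE 0.35). Against classical monocytes, with no UMI of either gene in Smc3-WT, cDC2 held at least 32.2-fold more Adam22 and at least 218-fold more Adam23. These bounds set 3 UMIs over both libraries as the floor.

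In cDC2 both genes were far lower in Smc3-cKO, in both libraries. Adam23 stood at 1811 and 1707 CPM in the Smc3-WT libraries and at 136 and 160 CPM in the Smc3-cKO libraries, from 445, 900, 40 and 122 UMIs. The lowest Smc3-WT library was thus more than 10-fold above the highest Smc3-cKO library. The fitted log2 change, Smc3-cKO over Smc3-WT, was -3.56 (SE 0.41), the 17th lowest of 6360 genes. Adam22 stood at 244 and 262 CPM against 47.7 and 35.5 CPM, from 60, 138, 14 and 27 UMIs, again with no overlap. Its log2 change was -2.66 (SE 0.32), the 36th lowest.
In this comparison 40 genes passed the test (0.629%), 5 higher and 35 lower (0.55%), and 20.9% of genes had both Smc3-cKO libraries below both Smc3-WT libraries. Since the contrast chose the genes, nothing is read from where they stand against these shares.

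cDC1 showed the same direction with fewer cells. Adam22 was 251 and 139 CPM in the Smc3-WT libraries and 10.6 and 16.5 CPM in those of Smc3-cKO, where only 3 and 2 UMIs were left. Adam23 was 1232 and 615 CPM against 42.4 and 198 CPM. No library of one genotype reached the other for either gene, a pattern that 15.1% of genes showed in that direction. Smc3-cKO replicate 2 held 16 cDC1, under the minimum of 20 set for a fit, and a fit with at least 10 cells, added after the cell numbers were seen, gave log2 changes of -3.95 (SE 0.61) and -3.12 (SE 0.64). In that fit 12 of 4978 genes (0.241%) were called, none of them higher.

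Within each Smc3-cKO library, mature cDC had a higher Adam23 level than the other cDC classes. Adam23 was 2975 and 2592 CPM with intact Smc3 (Smc3-WT) and 1220 and 704 CPM in the Smc3-cKO libraries. Adam22 was 385 and 325 CPM against 193 and 51.2 CPM. The libraries did not overlap, as for 18.8% of genes in that direction. The fit with at least 10 cells gave log2 changes of -1.60 (SE 0.53) for Adam23 and -1.65 (SE 0.59) for Adam22, from 11 and 12 Smc3-cKO cells, and whether these changes differ from those of cDC2 was not tested. In Smc3-cKO replicate 1, a cell with 56 Adam23 UMIs held most of the 76 UMIs of its class, and in Smc3-cKO replicate 2 the Adam22 level came from 4 UMIs in 1 of 12 cells. The 8 mature cDC markers themselves summed to 3594 and 3696 CPM in the mature cDC of Smc3-WT mice and to 1878 and 1995 CPM in those of Smc3-cKO mice, with 7 or 8 detected in each library, and their part in these changes was not tested.
Over all cDC, Adam22 was 293 and 224 CPM against 44.1 and 30.9 CPM (log2 change -2.85, SE 0.34). Adam23 was 2076 and 1462 CPM against 193 and 239 CPM (log2 change -3.08, SE 0.43). Of 8972 genes, 20 were called (0.223%), 17 of them lower (0.189%), and 18.2% had both Smc3-cKO libraries lowest.

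Fewer Smc3-cKO cDC2 held a UMI of either gene, and those positive for Adam23 held fewer of its UMIs. After each cell was thinned to 1500 UMIs, which left out 1 or 2 of the Smc3-cKO cDC2 per library and none from Smc3-WT, Adam23 was seen in 64.6% (exact 95% interval 49.5% to 77.8%) and 65.0% (55.0% to 74.2%) of Smc3-WT cDC2. In Smc3-cKO cDC2 it was seen in 11.9% (3.98% to 25.6%) and 13.3% (7.82% to 20.7%). The shares for Adam22 were 33.3% and 29.1% against 4.76% and 5%. Intervals cover counting error only.
Without thinning, Adam23-positive cDC2 held a median of 11 and 8.5 UMIs per cell in the Smc3-WT libraries and of 3.5 and 4 in those of Smc3-cKO. The background was far below these shares: thinned Smc3-WT B cells were positive for Adam23 in 0.507% and 0.17% and for Adam22 in 0.23% and 0.144%. Median depth in Smc3-WT was 2791 and 2607 UMIs for B cells and 4656 and 5085 for cDC2. Smc3-cKO cDC2 were the deeper ones, with medians of 6383 and 6027 UMIs.

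**Figure D2:**
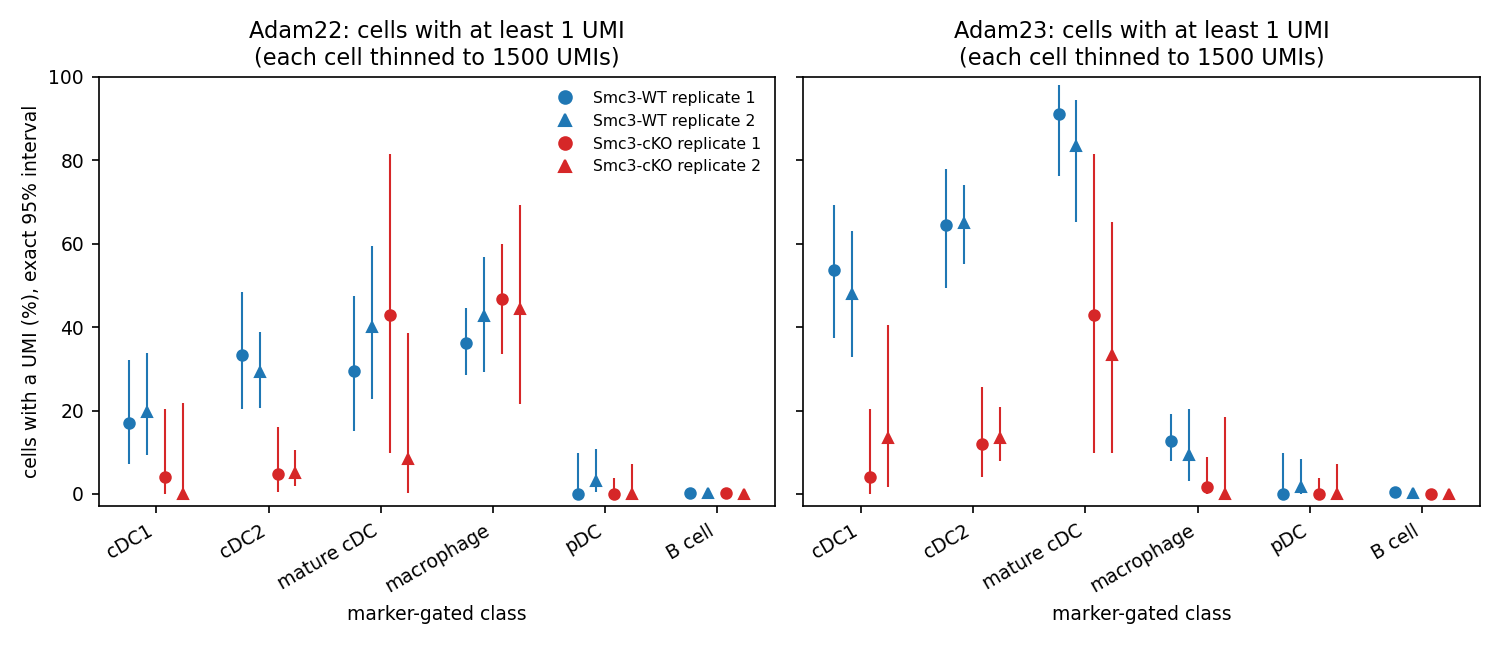
Percent of cells with at least 1 UMI of Adam22 (left) or Adam23 (right) after thinning each cell to 1500 UMIs, by class and library, with exact 95% binomial intervals (blue Smc3-WT, red Smc3-cKO). Smc3-cKO cDC2 lie at 4.76% and 5% for Adam22 and at 11.9% and 13.3% for Adam23, and B cells stay near 0.

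The 2 transcripts were often found in the same cells, in cDC2 less clearly so once depth was made equal. In unthinned Smc3-WT cDC2, 64.7% and 67.5% of Adam23-positive cells also had an Adam22 UMI, against 21.4% and 17.4% of Adam23-negative cells. In the draw of 1500 UMIs the figures were 41.9% and 29.9% against 17.6% and 27.8%, so in cDC2 the difference was wide in replicate 1 only. In that draw Smc3-WT cDC1 gave 27.3% and 31.8% against 5.26% and 8.33%. All Smc3-WT cDC gave 35.1% and 30.5% against 7.27% and 17.7%, and mature cDC 32.3% and 40% against 0% and 40%. In thinned Smc3-cKO cDC2, 0 of 5 and 3 of 16 Adam23-positive cells also had an Adam22 UMI, too few to compare.

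The cDC2 of the 2 genotypes also differed in other markers. Cd209a, a C-type lectin, was 151 and 233 CPM in the cDC2 of Smc3-WT mice and 614 and 782 CPM in those of Smc3-cKO mice, while Clec4a4, which marks the Esam-high kind of cDC2, was 122 and 148 CPM against 17.0 and 40.7 CPM. The summed level of the 10 pDC markers was 985 and 711 CPM against 1527 and 2665 CPM, with 8 or 9 of them detected in each library. The 8 mature cDC markers summed to 493 and 512 CPM against 153 and 294 CPM, with 3 to 5 detected. The 10 B cell markers, all detected, summed to 912 and 535 CPM against 225 and 264 CPM. The 10 macrophage markers summed to 220 and 56.9 CPM against 181 and 99.9 CPM, with 7 to 10 detected and C1qa at 0 in Smc3-cKO replicate 2. The 10 classical monocyte markers summed to 794 and 387 CPM against 1241 and 888 CPM, with 6 to 8 detected, and the 10 nonclassical ones to 529 and 341 CPM against 917 and 606 CPM, with 8 to 10 detected. At 12.5% and 10.7% of cells in the Smc3-WT libraries, but 25.6% and 19.7% in those of Smc3-cKO, cDC2 lay at the limit of the lineage gate, with the fewest markers or the smallest lead it allows. The part of these markers in the levels of Adam22 and Adam23 was not tested beyond the split by Cd209a that follows.
In cDC2 with a Cd209a UMI, Adam23 was 1085 and 1258 CPM against 123 and 117 CPM, and in those without it 2214 and 2057 CPM against 163 and 305 CPM. Adam22 was 149 and 265 CPM against 20.5 and 20.4 CPM with Cd209a, and 297 and 260 CPM against 102 and 86.5 CPM without. Both genes were lower in both Smc3-cKO libraries on either side of the split, and for Adam22 the log2 ratio of the means was -3.34 with Cd209a and -1.57 without.

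In macrophages the Adam22 level did not separate the genotypes. Adam22 was 370 and 399 CPM in Smc3-WT macrophages and 401 and 194 CPM in Smc3-cKO macrophages, from 327, 78, 142 and 20 UMIs. The genotypes overlapped, and Smc3-cKO replicate 2, with 33 cells, was the low one. The edgeR log2 change was -0.37 (SE 0.41, 95% interval -1.31 to 0.58, adjusted p = 1), and it was 0.01 without that library. Among 5081 genes 1 was called (0.0197%), and it was higher. Unthinned, 42.3%, 42.9%, 55.4% and 39.4% of macrophages held an Adam22 UMI. Thinning to 1500 UMIs kept 149 of 248, 54 of 91, 60 of 74 and 18 of 33 macrophages, and the shares among these were 36.2%, 42.6%, 46.7% and 44.4% in the draw used and 38.7%, 39.95%, 39.4% and 33.4% as a mean over all draws. Whether the change in macrophages differs from that in cDC2 was not tested as an interaction.
Adam23 in macrophages was 128 and 35.8 CPM in the Smc3-WT libraries against 22.6 and 0 CPM, and it missed the filter on low counts. Its positive macrophages held a mean of 2.42 cDC markers against 1.57 in negative ones in Smc3-WT replicate 1. The means were 1.29 against 1 in Smc3-WT replicate 2 and 1 against 1.56 in Smc3-cKO replicate 1, from 7 and 2 positive cells. Adam22-positive macrophages held more cDC markers than negative ones in every library. Their means were 2.58, 1.36, 2 and 1.23 against 1.03, 0.769, 0.970 and 0.7. Over the class, cDC markers summed to 927 and 768 CPM for the Smc3-WT libraries and to 656 and 369 CPM for those of Smc3-cKO. The part of cDC RNA in the macrophage level of either gene was not tested.

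In the named classes outside cDC and macrophages both genes were near background. In pDC, Adam22 had 1, 4, 0 and 0 UMIs and Adam23 had 0, 7, 0 and 0 UMIs over the libraries, too few for the fit. In B cells Adam23 had 177 and 75 UMIs in Smc3-WT (8.02 and 2.89 CPM) against 1 and 0 UMIs in Smc3-cKO. It passed the filter on low counts there through Smc3-WT alone, so no test of it is given. B cells of Smc3-WT replicate 1 carried the most Adam23, and in that library the doublet caller marked the smallest share of cells, 1.03% against 4.05% to 6.41% in the others. Adam22 in B cells had 58 and 36 UMIs in Smc3-WT against 11 and 8 in Smc3-cKO. In T cells Adam23 had 50 and 21 UMIs against 0 and 0, and Adam22 had 8 and 3 against 1 and 1. The part of doublets and free RNA in these few UMIs was not tested.

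Other genes of the ADAM family were tested alongside. The family holds 32 other members among the gene rows, all defined by symbol. Of these, 13 had a UMI in cDC2 and 5 passed the filter, and none was called by edgeR or DESeq2 (1 had an unadjusted p under 0.05). Adam10 and Adam17, the main active sheddases of leukocyte surface proteins, had log2 changes of -0.37 (SE 0.29) and 0.11 (SE 0.29). Adam19, an active protease that was 261 and 315 CPM against 191 and 148 CPM, had a fitted log2 difference of -0.79 (SE 0.30, adjusted p = 0.447). The median of the 5 was 0.11 against 0.01 over all 6360 genes. In the other classes the family median was lower, at -0.20 in all cDC, -0.70 in cDC1 (fit with at least 10 cells) and -0.50 in pDC. The medians over all genes there were 0.01, 0.02 and -0.03. Only 4 members were tested in cDC1 and 4 in pDC, and edgeR called none of them.
In all cDC 7 members were tested and again none was called by edgeR, with 2 at an unadjusted p under 0.05. Adam8, a protease of activated leukocytes, was 95.9 and 53.6 CPM against 22.7 and 13.3 CPM there, and the fit gave -2.13 on the log2 scale (SE 0.44, adjusted p = 0.0925). DESeq2 called this change of Adam8 (adjusted p = 0.0348).

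The partners through which ADAM22 and ADAM23 act in neurons were only partly there. The list holds Adam11, which is the related receptor, the 4 LGI ligands, scaffold proteins, potassium channels, integrins and 14-3-3 proteins, 20 genes in all. Of them 16 had a UMI in cDC2 and 11 were tested, while Lgi1, Lgi2 and Lgi3 had no UMI there and Lgi4 had 2. None of the 11 was called by edgeR or DESeq2, and 1 had an unadjusted p under 0.05. The median log2 change of the 11 was 0.42 against 0.01 over all genes tested. Without Smc3-WT replicate 2, where 526 of 6158 genes (8.54%) were called, 4 of them were called. The lone Smc3-WT library is then assumed to vary like the Smc3-cKO ones.
The scaffold gene Dlg1 was 509 and 311 CPM in cDC2 of Smc3-WT mice and 201 and 277 CPM in cDC2 of Smc3-cKO mice (log2 change -0.74, SE 0.33, adjusted p = 0.544). Itgb1, the beta1 integrin chain, had a fitted log2 difference of 0.14 (SE 0.29, adjusted p = 0.941). In macrophages, where Adam22 is expressed in both genotypes, the scaffold gene Dlg2 lay between 1476 and 3511 CPM and the potassium channel gene Kcna2 between 146 and 212 CPM. Neither differed by the test (adjusted p = 1 for both).

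**Figure D3:**
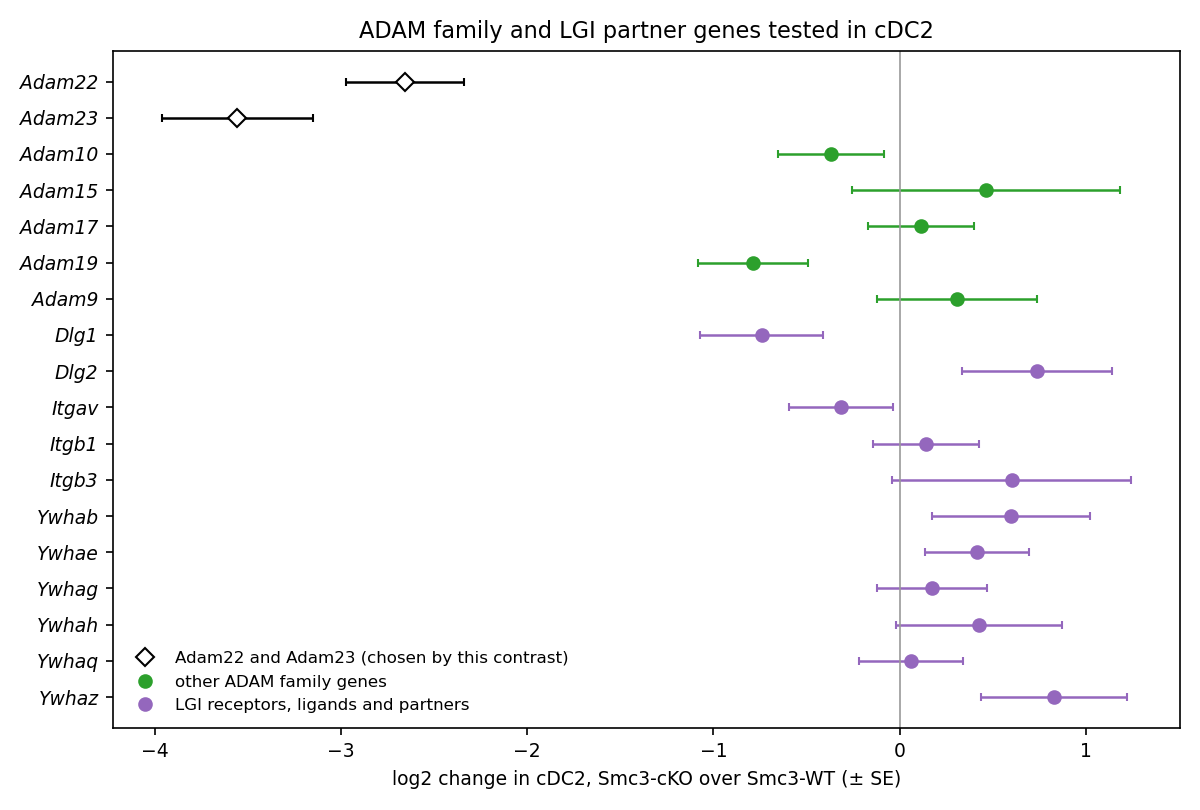
Fitted log2 change in cDC2, Smc3-cKO over Smc3-WT, with its SE, for each gene of the ADAM family (green) and of the LGI partner list (purple) that passed the filter, and for Adam22 and Adam23 (open diamonds), which were chosen by this contrast. The green and purple points lie between -0.79 and 0.83 and none was called.

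Genes on the same stretch of chromosome were taken by position, all those within 500 kb of either gene body. Near Adam22 the annotation lists 17, of which 10 had a row and 6 were tested in cDC2, and 2 fell, against 0.55% of all genes tested. Rundc3b, which encodes a RUN domain protein (chromosome 5, 8490336 to 8623084, 122 kb from Adam22), was 97.7 and 98.7 CPM in the Smc3-WT libraries and 6.82 and 18.4 CPM in those of Smc3-cKO. Its log2 change was -2.75 (SE 0.47, adjusted p = 0.034). Abcb1a, a drug efflux pump (chromosome 5, 8567091 to 8748575, 199 kb from Adam22), was 142 and 133 CPM against 23.9 and 25.0 CPM, which the fit put at -2.47 on the log2 scale (SE 0.34, adjusted p = 0.0123). Both lie on the side of the Adam22 start. Their libraries did not overlap between genotypes, as for 20.9% of genes in that direction. Rundc3b passed the filter on low counts through Smc3-WT alone, and Abcb1a would not have passed it on its Smc3-cKO libraries alone. No test is therefore read from their adjusted p-values in cDC2, and the count of 2 near Adam22 is a description only.
The annotated bodies of these 2 genes overlap, and Abcb1a shares long stretches with its copy Abcb1b, so reads could be split between them. Abcb1b had a fitted log2 difference of 0.66 (SE 0.33, adjusted p = 0.602). The genes nearer to Adam22 did not pass the test: Sri, at -3.03 kb on the side of the Adam22 end, had a log2 change of 0.52 (SE 0.49), Dbf4, 28.7 kb away, -0.17 (SE 0.58), and Slc25a40, 54.4 kb away, 0.12 (SE 0.46). Neither Rundc3b nor Abcb1a passed without Smc3-cKO replicate 1 (adjusted p = 0.954 for each) or replicate 2 (0.854 for each), settings in which no gene did. Rundc3b was also lost with a stricter lineage gate (adjusted p = 0.0613).
In all cDC neither passed edgeR's test (adjusted p = 0.107 for Rundc3b and 0.0514 for Abcb1a), while DESeq2 called Abcb1a (adjusted p = 0.0191). In cDC1 both were scarce, with 13 and 5 UMIs over the 4 libraries, and were not tested.

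Near Adam23 the annotation lists 31 genes, of which 15 had a row and 4 were tested in cDC2. None passed edgeR's test, and none had an unadjusted p under 0.05. Eef1b2, a translation elongation factor, and Ndufs1, a subunit of respiratory complex I, had log2 changes of 0.55 (SE 0.41) and 0.28 (SE 0.39). Ino80d, a chromatin remodelling subunit, had 0.27 (SE 0.31) and Klf7, a zinc finger transcription factor, -0.60 (SE 0.42). The neighbours that lie nearer to Adam23 than Eef1b2, at 265 kb, had at most 26 UMIs each in cDC2.

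**Figure D4:**
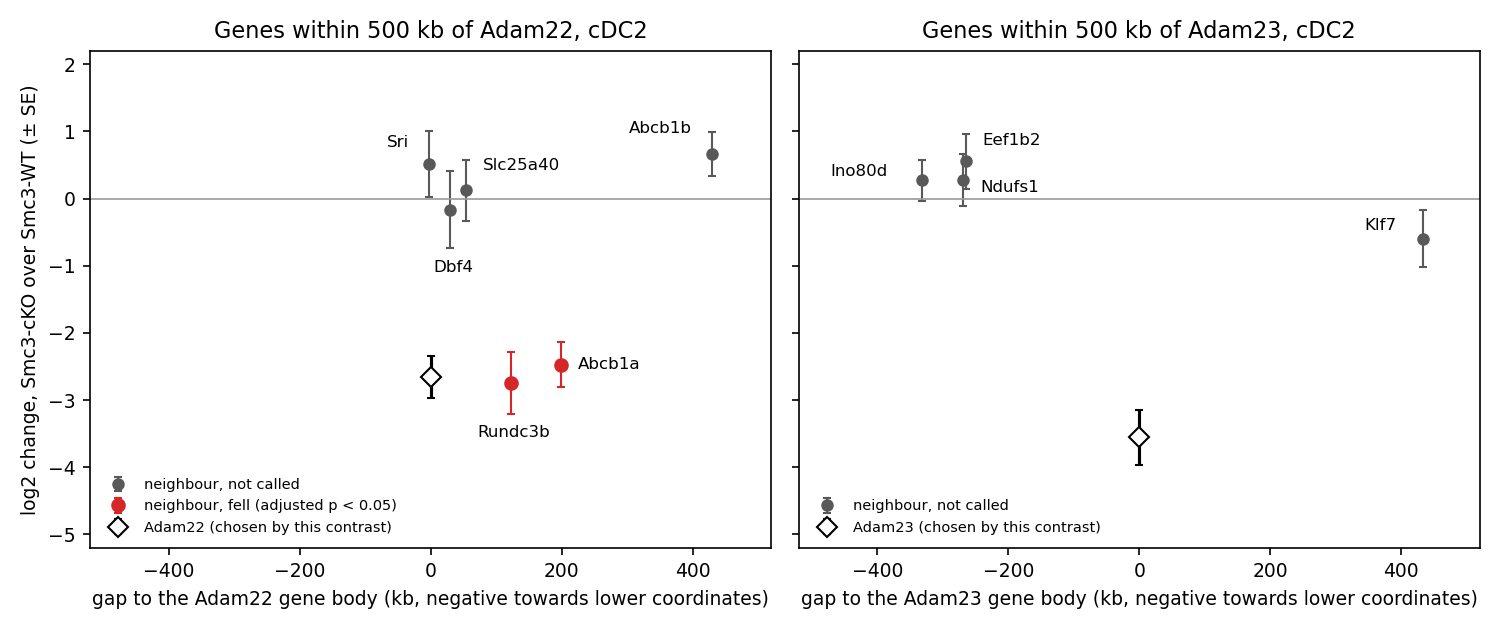
Fitted log2 change in cDC2, Smc3-cKO over Smc3-WT, with its SE, against the gap in kb to the body of Adam22 (left) or Adam23 (right), for every tested gene within 500 kb. Open diamonds are Adam22 and Adam23 at a gap of 0. Rundc3b and Abcb1a (red) lie at -2.75 and -2.47, and their calls are a description only. The nearer genes Sri, Dbf4 and Slc25a40 lie between -0.17 and 0.52.

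The genes whose pattern over classes and libraries came closest were found by Pearson correlation of log2(CPM + 10) over 51 sums from 14 classes, among 8633 genes. The sums share libraries and vary in depth, so these values are descriptions. For Adam22 the 5 nearest were Tspan9 (r = 0.91), Asb2 (0.91), Adgrl3 (0.89), Zfp366 (0.89) and Ccser1 (0.89). For Adam23 they were Stra6l (0.94), Arhgap22 (0.92), Ccser1 (0.92), Anpep (0.91) and Frmd5 (0.91). Adam22 and Adam23 correlated at 0.83, which put Adam23 17th for Adam22 and Adam22 21st for Adam23.
The 5 genes nearest to Adam22 all reached 100 CPM or more in both Smc3-WT macrophage libraries. Adgrl3, a latrophilin receptor of neurons, was 3961 and 3447 CPM in Smc3-WT cDC2 and 2973 and 3061 CPM in Smc3-WT macrophages. In Smc3-cKO it was 1261 and 826 CPM in cDC2 and 3124 and 2184 CPM in macrophages, so its macrophage libraries overlapped between genotypes as those of Adam22 did. Frmd5, near to Adam23, was 940 and 914 CPM in Smc3-WT cDC2, 57.9 and 89.3 CPM in Smc3-cKO cDC2, and absent or at most 8.48 CPM in macrophages. Not every near gene was lower in Smc3-cKO cDC2. Arhgap22, also near to Adam23, was 65.1 and 68.3 CPM in Smc3-WT cDC2 and 47.7 and 71.0 CPM in Smc3-cKO cDC2, so its libraries overlapped.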

How the data were processed

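The authors deposited raw UMI counts for every gene in every barcode, from Cell Ranger 7.0.0 per the file headers. The genome build mm10, deepTools and Juicer are named in the submitters' processing notes, without saying for which data. Further filters are not given in the sources used here. Adam22, Adam23 and all gene lists were chosen with earlier results of these data known.

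Barcodes with under 200 genes or over 10% mitochondrial UMIs were dropped, from 9074 to 16096 barcodes and 40367056 to 51299056 UMIs per library. Doublets called by Scrublet in scanpy 1.11.5 were removed, 1.03% to 6.41% of cells against 7.26% to 12.9% expected, so doublets remain. Libraries shared 36 to 61 barcodes, at most 0.432% of the smaller library. A cell took the lineage, of 13, with most detected markers (10 each), given at least 3 and a lead of 2. Within cDC, mature cells needed 3 of 8 mature markers, and subsets 2 of 8 and a lead of 1. Unassigned cells were 5.64% to 17.9%.

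Counts were summed per library and class with at least 20 cells in every library. They were fitted with edgeR 4.0.16 (R 4.3.3; limma 3.58.1): filterByExpr, TMM and the quasi-likelihood F test, Benjamini-Hochberg at 0.05. DESeq2 1.42.0 was an alternative. CPM printed are counts per 1000000 UMIs of the class, without TMM. Fits were also run on 3 sets of simulated counts with the same spread for every gene and no library effect. They recovered 82.7% to 86.9% of log2 changes of 2 in size and 100% of those of 3, with 5 to 12 false calls. Such counts are simpler than these data, so this does not check the calls made here. With 2 libraries a genotype, the smallest p of an exact permutation test is 0.333. Genes named are both members, list genes that passed the filter in cDC1 or cDC2, genes within 500 kb and the 5 most alike. Adam8, Dlg2 and Kcna2, named in other classes, and the examples given among the genes most alike were chosen after their values were seen.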

Additional observations from a re-analysis of the deposited data

Results flagged for a closer look

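Cells that met no lineage rule, which entered no comparison, also carried both transcripts above the level of B cells. Adam22 was 22 and 23 CPM in the Smc3-WT and 11 and 4.4 CPM in the Smc3-cKO unassigned cells, against 0.348 to 2.63 CPM in B cells. Adam23 was 98.5 and 112 CPM against 12.7 and 6.85 CPM, with at most 8.02 CPM in B cells. Of the Adam23 UMIs in unassigned cells, 93.5%, 85.5%, 100% and 85.7% sat in cells with at least 3 cDC markers, and for Adam22 the shares were 80.5%, 78.1%, 96.2% and 44.4%. These cells made up 17.9% of Smc3-WT replicate 1 and 5.64% to 8.60% of the other libraries.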

How the results depend on the processing

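Under every alternative computed, Adam22 and Adam23 stayed lower in Smc3-cKO cDC2, all cDC, cDC1 and mature cDC. In cDC2 the log2 change of Adam22 was -2.99 with equal cell numbers, -3.34 with and -1.57 without a Cd209a UMI, and that of Adam23 was -3.28 and -3.19 in the split. Leaving out 1 library gave -2.84 to -2.38 and -3.66 to -3.46 in cDC2, -3.12 to -2.61 and -3.31 to -2.81 in all cDC, -4.21 to -3.36 and -4.45 to -2.22 in cDC1, and -2.79 to -0.88 and -1.98 to -1.19 in mature cDC, for Adam22 and Adam23. In macrophages the range for Adam22 was -1.09 to 0.01, with the sign turned (0.00801) without Smc3-cKO replicate 2, never past the threshold. The Adam23 difference between cDC2 and cDC1 missed the threshold with a looser gate (0.81), mitochondrial UMIs at most 5% (0.86) and no filter (0.91). Against classical monocytes, where no test is read, DESeq2 gave 7.90 for Adam22 and 10.69 for Adam23. Leaving out a Smc3-WT library leaves no residual degrees of freedom in these class comparisons, and equal cell numbers left too few cDC1 to fit.

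Replicate numbers are shared between genotypes, but nothing in the labels says that they pair libraries. Deviations of same-numbered libraries correlated at 0.125 over 6360 genes in cDC2. With the replicate block the log2 changes of Adam22 and Adam23 were -2.66 and -3.56 in cDC2, and 106 genes were called in cDC2, 171 in all cDC and 25 in pDC, against 40, 20 and 0. Called in all cDC were then 1 ADAM family gene and 2 neighbours. With no replicate block the Adam23 difference between cDC2 and cDC1 was 0.80 (adjusted p = 0.634).

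Called genes in cDC2 numbered 219 without the filter, and leaving out 1 library gave 0 to 526. For all cDC they were 49 with the looser gate, 11 at 5% mitochondrial UMIs, 43 with doublets kept, 48 with equal cells, 92 with DESeq2, 344 without the filter and 0 to 619 leaving out 1 library. For pDC they were 32 without the filter and 4 to 36 leaving out 1 library. The cause was not tested. Neighbours called in cDC2 were 1 with the stricter gate and 0 to 4 leaving out 1 library. In all cDC they were 1 with the looser gate, no mitochondrial limit, doublets kept, equal cells or DESeq2, 2 without the filter and 0 to 2 leaving out 1 library. The ADAM family gave 1 call in all cDC with DESeq2 or no filter and 0 to 1 leaving out 1 library, and the LGI list 0 to 4 in cDC2 and 0 to 1 in all cDC.

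The share of cDC2 with an Adam22 UMI, a mean of 31.2% in Smc3-WT and 4.88% in Smc3-cKO, was 13% and 5.14% at 1000 UMIs, 39.7% and 11.5% at 2500, and 54.2% and 15.8% unthinned. For Adam23, at 64.8% and 12.6%, it was 58.4% and 10.4%, 70.4% and 15.9%, and 74.3% and 20.4%. Each thinning is 1 random draw. As a mean over all draws, added after seeing the data, the Adam22 shares were 21.4% and 3.89% at 1000 UMIs and 29.1% and 5.72% at 1500, and those of Adam23 were 60.6% and 8.62%, and 66.9% and 11.2%.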
